A study of Mus musculus with 9 samples.

Results

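The 8 genes described here are members of the Snail, Zeb and Twist families and the homeobox gene Prrx1: Snai1, Snai2, Snai3, Zeb1, Zeb2, Twist1, Twist2 and Prrx1. The group is known for factors that switch epithelial cells towards a mesenchymal state. All 8 were chosen by name from the 21938 protein-coding genes of the GENCODE M21 annotation of the mouse genome (mm10). No measured value set the choice, but earlier results of these data were known when it was made. Their start sites, and their spans with 5 kb on each side, held 7 of the 13491 non-methylated islands (NMIs) in the list. An NMI is a stretch of DNA in which CpG sites lack methylation.

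The study asked how the SET1 complex, which places trimethylation on lysine 4 of histone H3, finds its target promoters. NMIs came from a single BioCAP library of C127 cells, a mouse mammary epithelial line, grown without any treatment or genetic change that the labels name. In BioCAP, sonicated genomic DNA is bound to beads coated with the KDM2B CXXC domain, which recognizes CpG without methylation, and is then released with salt. The other 8 samples of the series (1 BioCAP input, 3 ATAC libraries, 1 ATAC input and 3 libraries of RNA labelled with 4-thiouridine) were not analysed here.

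Each NMI was given by its start and end alone, with no score, so neither read depth nor enrichment was known, and with 1 library no value carried a replicate error or a test. Where a gene is said to have no NMI, none was in this list, and neither its methylation nor its expression was analysed here. Of the epithelial markers Cdh1, Epcam, Krt8, Krt18, Cldn3, Cldn4 and Cldn7, 0 of 7 had an NMI at a start site, and of the mesenchymal markers Vim, Cdh2, Fn1 and Pdgfra, 4 of 4 did, beside 47.5% of all protein-coding genes. These few markers do not stand for their classes, since in longer lists 5 of 25 epithelial genes, such as Pkp2, Llgl2 and Muc1, and 10 of 22 mesenchymal genes had one. The counts describe where non-methylated DNA lay and do not type the cells.

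In vertebrate genomes most CpG sites are methylated, and the exceptions gather at CpG islands, GC-rich stretches that cover the promoters of many housekeeping and developmental genes. Snail proteins are zinc finger repressors that bind E-box motifs in the promoters of epithelial genes such as the E-cadherin gene. Zeb proteins bind similar motifs through clusters of zinc fingers at each end of a homeodomain protein, Twist proteins are basic helix-loop-helix factors that bind as dimers, and Prrx1 is a homeodomain factor of limb and craniofacial mesenchyme. Members of these families act in gastrulation, in neural crest migration and in the spread of carcinoma cells.

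Promoter windows of members are shown first. They hold the 250 bases before a RefSeq start site and 50 bases counted from the start base itself, 300 bases in all. The GRCm38.p6 sequence from RefSeq is read 5′ to 3′ on the strand of the gene, with every CpG in capitals. Of the 8 members, 5 had a window in the RefSeq table used here, and Snai2, Snai3 and Zeb1 had none. The Snai1 window (chr2:167537945-167538244, plus strand) and the Twist2 window (chr1:91801211-91801510, plus strand) lay wholly in NMIs, and the Twist1 window (chr12:33957421-33957720, plus strand) crossed the edge of one. The windows at the outermost start of Zeb2 (chr2:45117393-45117692, minus strand), at its upstream cluster of starts (chr2:45113230-45113529, minus strand) and at Prrx1 (chr1:163313601-163313900, minus strand) had no base in an NMI. The RefSeq start of the outermost Zeb2 window, 45117442, lies upstream of the outermost GENCODE start used below, 45117395. Nearly all of that window thus precedes the GENCODE start.
Snai1: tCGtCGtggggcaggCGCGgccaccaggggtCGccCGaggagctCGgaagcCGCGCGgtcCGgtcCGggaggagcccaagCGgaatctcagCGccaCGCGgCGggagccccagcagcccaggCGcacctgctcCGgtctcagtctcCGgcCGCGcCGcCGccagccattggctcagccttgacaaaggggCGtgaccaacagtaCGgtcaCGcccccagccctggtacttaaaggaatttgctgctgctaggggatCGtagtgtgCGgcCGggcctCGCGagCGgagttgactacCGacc
Twist1: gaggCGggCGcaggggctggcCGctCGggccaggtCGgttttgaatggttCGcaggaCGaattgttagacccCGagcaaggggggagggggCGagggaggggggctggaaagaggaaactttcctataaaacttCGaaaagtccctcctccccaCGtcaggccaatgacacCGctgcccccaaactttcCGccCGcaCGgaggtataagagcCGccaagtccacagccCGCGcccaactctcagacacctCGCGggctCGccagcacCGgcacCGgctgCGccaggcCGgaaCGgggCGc
Twist2: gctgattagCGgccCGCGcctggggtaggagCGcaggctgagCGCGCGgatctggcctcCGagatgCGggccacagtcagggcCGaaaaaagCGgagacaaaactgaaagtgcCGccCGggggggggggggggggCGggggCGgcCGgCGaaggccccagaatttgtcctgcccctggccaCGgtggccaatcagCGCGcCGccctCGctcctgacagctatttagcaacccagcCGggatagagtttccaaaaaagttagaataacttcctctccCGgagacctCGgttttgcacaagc
Zeb2 outermost start: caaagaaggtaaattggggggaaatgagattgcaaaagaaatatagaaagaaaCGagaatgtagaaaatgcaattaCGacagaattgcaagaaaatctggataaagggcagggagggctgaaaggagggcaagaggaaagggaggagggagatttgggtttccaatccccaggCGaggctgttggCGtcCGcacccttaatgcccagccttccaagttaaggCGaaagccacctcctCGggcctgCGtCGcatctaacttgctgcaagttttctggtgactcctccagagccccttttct
Zeb2 upstream cluster: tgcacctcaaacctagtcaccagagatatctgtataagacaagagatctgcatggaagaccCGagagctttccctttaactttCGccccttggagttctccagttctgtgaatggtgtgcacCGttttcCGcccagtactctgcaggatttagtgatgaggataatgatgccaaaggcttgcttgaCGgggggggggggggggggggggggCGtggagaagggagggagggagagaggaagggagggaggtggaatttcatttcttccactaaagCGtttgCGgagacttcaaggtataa
Prrx1: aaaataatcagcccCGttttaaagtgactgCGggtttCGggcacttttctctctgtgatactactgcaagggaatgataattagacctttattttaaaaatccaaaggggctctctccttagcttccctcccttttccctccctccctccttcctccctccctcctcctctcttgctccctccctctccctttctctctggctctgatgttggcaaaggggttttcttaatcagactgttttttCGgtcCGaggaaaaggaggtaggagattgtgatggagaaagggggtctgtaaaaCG

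The Snai1 window held 34 CpGs, more than 92.3% of the 32851 RefSeq promoters, whose median was 7. Twist1 had 27 CpGs, with 184 of the 300 bases in its NMI, and Twist2 had 25. The windows outside NMIs were sparser in capitals, with 9 CpGs at the outermost Zeb2 start, 8 at its upstream cluster and 6 at Prrx1. Even so, the Zeb2 windows were not poor among promoters, since 54.2% of them held fewer CpGs than the outermost Zeb2 window and 51.3% fewer than the cluster window. A further Zeb2 window, at a start inside its NMI (chr2:45110228-45110527), held 19 CpGs, more than 71.9% of promoters. Prrx1 lay below the middle, with 43.6% of promoters holding fewer. The outermost Zeb2 window and the Prrx1 window stop short of denser sequence further into these genes. In windows of 200 bp the density peaked at 14.5 CpG per 100 bp, centred 200 bp after the outermost GENCODE start of Zeb2. That of Prrx1 peaked at 8.5, centred 1200 bp after its outermost start.

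To find which members begin in non-methylated DNA, the 5′ end of each annotated transcript, its transcription start site (TSS), was placed against the NMIs. Snai1, Snai2, Zeb1, Zeb2, Twist1 and Twist2 each had an NMI at a TSS, which is 6 of 8 members, beside 47.5% of all protein-coding genes. Snai3 and Prrx1 had none. The members were denser in CpG at their outermost TSS, with a median of 7.09 per 100 bp beside 4.10. Among genes within 1 CpG per 100 bp of a member, 72.9% to 83.8% had an NMI at a TSS, except around Prrx1 (24.4%). The count of 6 of 8 is thus not set against genes of like density by the 47.5%. Taking only the outermost TSS of each gene left 5 members, without Zeb2, beside 42.5% of all protein-coding genes. Allowing 1000 bp between TSS and NMI gave 7 members, with Snai3, beside 49.0%. Requiring the middle of the NMI to lie within 500 bp of a TSS left 4 members, Snai1, Snai2, Zeb2 and Twist2, beside 46.3%, so by that rule the members stood near the share of all genes. Within the gene span and 5 kb on each side, 7 members had an NMI, each of them exactly 1, beside 55.4% of protein-coding genes.

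Counted by transcript, 26 of the 52 annotated transcripts of the members (50%) began in an NMI, beside 39.0% of all transcripts of protein-coding genes. Every transcript of Snai1, Snai2, Twist1 and Twist2 did so, and these genes have only 1 or 2 transcripts each. Most of the 52 came from Zeb1 (12, of which 8 began in an NMI) and Zeb2 (29, of which 13 did), so these genes dominate the pooled share. Zeb1 and Zeb2 were the members with starts both inside and outside NMIs, 2 of the 6 with an NMI, and 71.9% of all protein-coding genes with an NMI also had such an outside start. The map of the 8 genes shows these positions.

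**Figure D1:**
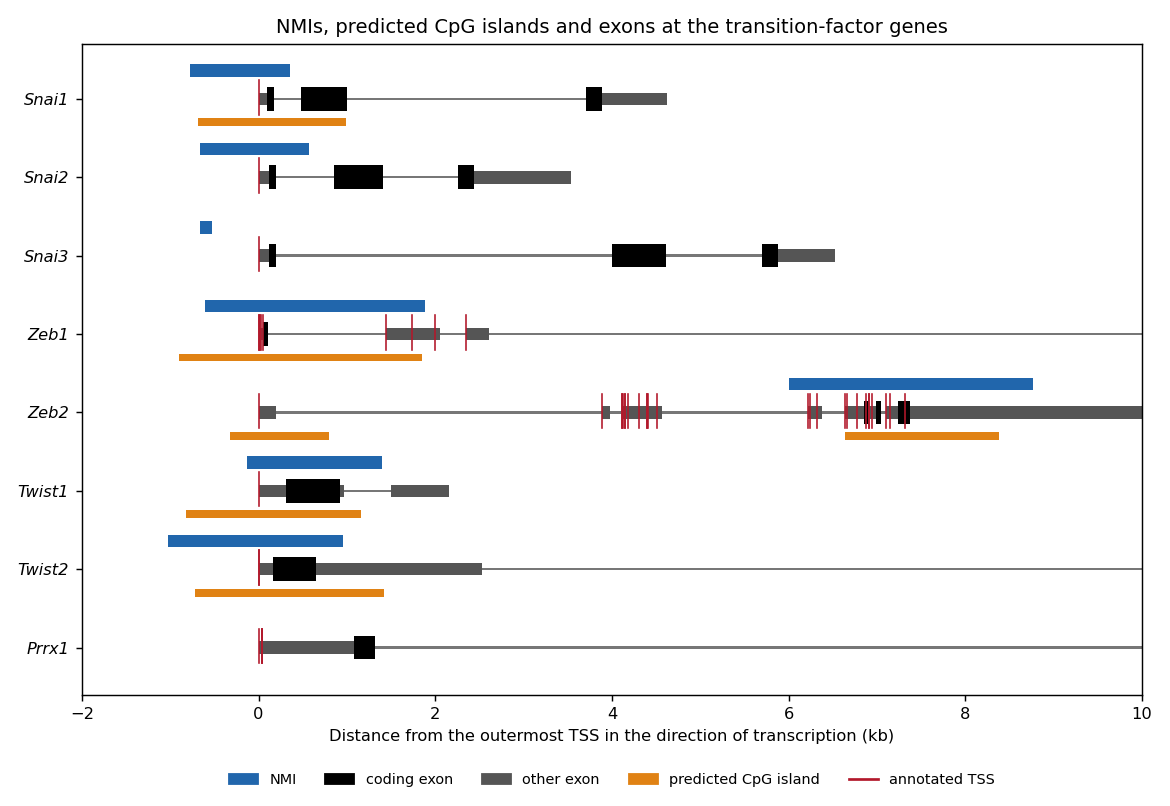
Each gene is drawn from its outermost TSS at 0, in the direction of transcription (kb), and is cut off at 10 kb. Blue bars are NMIs, black and grey boxes are coding and other exons, orange bars are predicted CpG islands and red ticks are annotated TSSs. Snai1, Snai2, Zeb1, Twist1 and Twist2 start inside their NMI, the Zeb2 NMI begins 6001 bp inside the gene, the Snai3 NMI lies 527 bp before the TSS, and Prrx1 has none.

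The Snail family was considered first. Snai1, which represses the E-cadherin gene and is needed for gastrulation, had an NMI of 1131 bp (chromosome 2, 167537421 to 167538551) that reached 774 bp upstream of the TSS and 356 bp downstream. The downstream part took in the first exon, with 82 of the 792 coding bases, and 180 bp of the first intron. It held 83 CpGs, a density of 7.34 per 100 bp, with a ratio of observed to expected CpG of 0.748. Sequence of the same width next to it held 1.86 CpG per 100 bp upstream and 4.42 downstream, so CpG-rich sequence went on past the downstream edge of the Snai1 NMI.

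Snai2, also called Slug, acts in neural crest cells and in basal cells of the mammary gland. Its NMI was about as wide, 1235 bp (chromosome 16, 14705191 to 14706425), with 661 bp upstream of the TSS and 573 bp downstream, but it was the poorest in CpG of the NMIs at member TSSs. It held 58 CpGs, or 4.70 per 100 bp, with a GC content of 53.3%, below the lower quartile of 5.67 CpG per 100 bp over the 9581 NMIs at protein-coding TSSs and below their median GC content of 60.8%. The flanks fell off on both sides, to 1.38 CpG per 100 bp upstream and 1.05 downstream. As at Snai1, the NMI covered the first coding exon and no other coding sequence, 79 of 807 bases.

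Snai3, the third Snail gene, differed from both. No NMI overlapped its TSS (chromosome 8, 122460733, minus strand). The nearest lay 527 bp upstream in intergenic sequence (122461260 to 122461394), was 135 bp wide and held 5 CpGs. Only 2.37% of the NMIs on the chromosomes were narrower. Of 11330 protein-coding genes without an NMI at a TSS that had one elsewhere on the chromosome to measure to, 1.45% had their nearest NMI closer to the outermost TSS.

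CpG density at Snai3 was highest in the sequence beside that narrow NMI, not in it. Within 500 bp of its TSS Snai3 had 5.59 CpG per 100 bp, above the 5.09 of Snai2. In windows of 200 bp the density reached 15.0 per 100 bp centred 50 bp upstream of the TSS, beside 10.0 for the highest window of Snai2, centred 50 bp downstream. Windows that each passed the criteria for a CpG island joined into a stretch from 530 bp upstream to 401 bp downstream of the Snai3 TSS with 55 CpGs, of which 4 bp overlapped the NMI. As a whole this stretch did not pass, with an observed/expected ratio of 0.595 where 0.65 was required. Among protein-coding genes within 1 CpG per 100 bp of Snai3, 3200 of 4177 (76.6%) had an NMI at a TSS.

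The Zeb genes had the widest NMIs of the group. Zeb1, which represses epithelial genes and is held down by the miR-200 family, had an NMI of 2482 bp (chromosome 18, 5591259 to 5593740), wider than 96.0% of NMIs at protein-coding TSSs. It was also the richest, with 249 CpGs, 10.0 per 100 bp and an observed/expected ratio of 0.947. It spanned 601 bp upstream of the outermost TSS and 1880 bp downstream, and the highest window of any member, 23.0 CpG per 100 bp, was centred 600 bp into the gene. Outside its edges the density fell to 0.886 CpG per 100 bp upstream and 1.13 downstream, so the Zeb1 NMI ended close to where the CpG-rich sequence ended.

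Of the 12 Zeb1 transcripts, 8 began in the NMI, all 3 of the protein-coding type among them. The 4 that began outside were non-coding transcripts whose starts lay 121 to 88720 bp from the NMI. TSSs of Gm10125 and Gm2238, annotated as a processed transcript and as a transcript to be experimentally checked, lay in the same NMI. The Zeb1 NMI thus held starts of 3 annotated genes, although it took in only 58 of the 3464 coding bases of Zeb1.

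Zeb2, which acts in the neural crest and whose human counterpart is mutated in Mowat-Wilson syndrome, had the widest NMI, 2763 bp (chromosome 2, 45108632 to 45111394), wider than 97.5% of NMIs at protein-coding TSSs. It was not at the annotated beginning of the gene. The outermost TSS (45117395, minus strand) lay 6001 bp from it, and the NMI covered 220 bp before and 2542 bp after the first TSS that it held. It contained 171 CpGs, or 6.19 per 100 bp, close to but below the median of 6.89 over NMIs at protein-coding TSSs. TSSs of the antisense gene Zeb2os and of Gm27761 lay in it as well.

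The 29 starts of Zeb2 fell into 4 places. In the NMI lay 13 of them, 9 of the protein-coding type, with 2.30 to 9.59 CpG per 100 bp within 500 bp. Upstream, 12 starts, 6 of them protein-coding, lay between 45112890 and 45113508, 1496 to 2114 bp from the NMI, with 2.10 to 2.80 CpG per 100 bp. The outermost start stood alone with 5.09, and 3 starts far downstream, 54391 to 85717 bp from the NMI, had 1.10 to 1.30. The starts of the upstream cluster thus overlapped in CpG density with the sparsest starts inside the NMI.

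The outermost Zeb2 start carried a CpG island predicted from sequence without an NMI. This island was 1122 bp wide with 68 CpGs and an observed/expected ratio of 0.736, and none of it lay in an NMI. The island inside the NMI was 1751 bp wide with 131 CpGs and a ratio of 0.769, and all of it did. The profiles of CpG density show both, with peaks of 14.5 CpG per 100 bp near the outermost start and 14.0 in the NMI.

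Twist1 and Twist2 encode closely related basic helix-loop-helix proteins of the head mesenchyme and dermis. The Twist1 NMI was 1528 bp wide (chromosome 12, 33957537 to 33959064) and lay almost wholly inside the gene, with 134 bp upstream of the TSS and 1393 bp downstream. It held 148 CpGs, 9.69 per 100 bp, with the highest GC content of the members at 68.6%. CpG-rich sequence went on upstream of it, at 4.45 CpG per 100 bp, and ended downstream, at 1.18. Over all genes with 1 NMI at their TSSs, a median of 34.4% of the NMI lay upstream of the first TSS in it, more than the 134 of 1528 bp at Twist1.

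The Twist2 NMI was wider, 1981 bp (chromosome 1, 91800436 to 91802416), and nearly centred, with 1025 bp upstream of the TSS and 955 bp downstream. It held 145 CpGs, 7.32 per 100 bp, in flanks of 1.11 upstream and 2.12 downstream. Both Twist genes have their coding sequence in a single exon near the start, and the NMIs covered all of it, 618 of 618 bases in Twist1 and 480 of 480 in Twist2. Among all genes with an NMI at a TSS the whole coding sequence lay in NMIs in 1.99%, and the median share was 4.05%. In Zeb1 the NMI covered 1.67% of the coding bases, in Zeb2 6.90%, in Snai2 9.79% and in Snai1 10.4%.

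Prrx1, a homeodomain factor of mesenchyme, was the member with no NMI in its span of 68592 bp and 5 kb on each side (chromosome 1, 163245119 to 163313710). None of its 5 transcripts began in one, 3 of the protein-coding type among them. The nearest NMI, 1106 bp wide at a TSS of Gorab, lay 89287 bp upstream of the outermost TSS. That distance is near the middle of the range, since among genes without an NMI at a TSS 52.1% had theirs nearer and the median was 80850.5 bp. Within 500 bp of its TSS Prrx1 had 2.60 CpG per 100 bp and an observed/expected ratio of 0.470, the lowest of the members on both.

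Sequence richer in CpG lay inside the Prrx1 gene. Joined windows of 1100 bp ran from 760 to 1859 bp after the TSS with 64 CpGs, took in 241 coding bases and had an observed/expected ratio of 0.632. No NMI overlapped them. The Prrx1 relative Prrx2 did have an NMI at a TSS, 735 bp wide, and it lay 6321 bp from the outermost Prrx2 TSS.

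Across the members, the order of width at a TSS was Zeb2 (2763 bp), Zeb1 (2482 bp), Twist2 (1981 bp), Twist1 (1528 bp), Snai2 (1235 bp) and Snai1 (1131 bp). The median was 1754.5 bp, beside 1173 bp for the 9581 NMIs at protein-coding TSSs, whose quartiles were 885 and 1543 bp. Twist2, Zeb1 and Zeb2 lay above the upper quartile, Snai2 and Twist1 between the median and the upper quartile, and Snai1 just below the median. NMIs of 2500 bp or more made up 3.93% of those at protein-coding TSSs, and only that of Zeb2 was so wide among the members. How far a width varies between libraries is unknown here, so neighbours in this order, such as Snai1 and Snai2, were not told apart by any test.

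**Figure D2:**
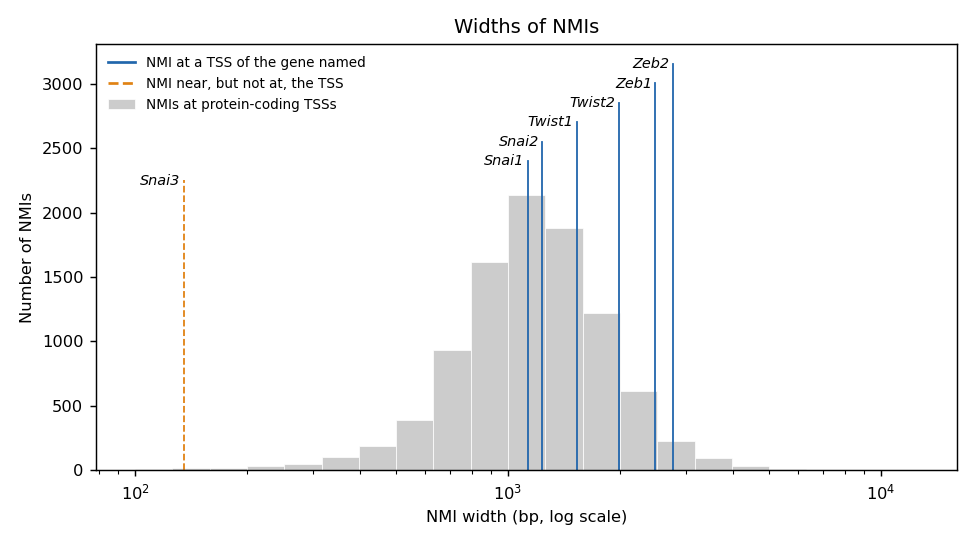
Widths of NMIs (bp, log scale) are plotted against the number of NMIs at protein-coding TSSs (grey bars), with the NMIs of the members as lines. The 6 NMIs at member TSSs (blue) lie between 1131 and 2763 bp, and the NMI upstream of Snai3 (orange, dashed) lies far to the left at 135 bp.

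The widest NMI was not the densest. That of Zeb2 had the second lowest density of the 6, and the densest were those of Zeb1 (10.0 per 100 bp) and Twist1 (9.69). Of the 7 NMIs, 4 stood far from any other. The gap to the next NMI was 527234 bp for Twist1, 343090 bp for Snai2, 226060 bp for Zeb1 and 180558 bp for Zeb2, beside a median of 28394 bp for NMIs at protein-coding TSSs. The Twist1 gap was larger than that of 98.3% of these NMIs and the Snai2 gap larger than 96.8%. The gaps were 45013 bp for Twist2, 14303 bp for Snai1 and 13859 bp for Snai3.

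CpG density at the start sites was then compared with that of other genes. Within 500 bp of the outermost TSS the members had a median of 7.09 CpG per 100 bp and a median observed/expected ratio of 0.748, beside 4.10 and 0.552 over all protein-coding genes. The densities were 11.4 for Zeb1 and for Twist1, 8.99 for Twist2, 8.59 for Snai1, 5.59 for Snai3, 5.09 for Snai2 and for Zeb2, and 2.60 for Prrx1. Genes with an NMI at a TSS had a median of 6.49 with a lower quartile of 4.80, and genes without had a median of 1.40 with an upper quartile of 3.20. BioCAP binds DNA through CpG without methylation, so CpG density and NMI status are not independent measures. Snai3 had a density in the range of the genes with an NMI, and Prrx1 one in the range of the genes without.

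**Figure D3:**
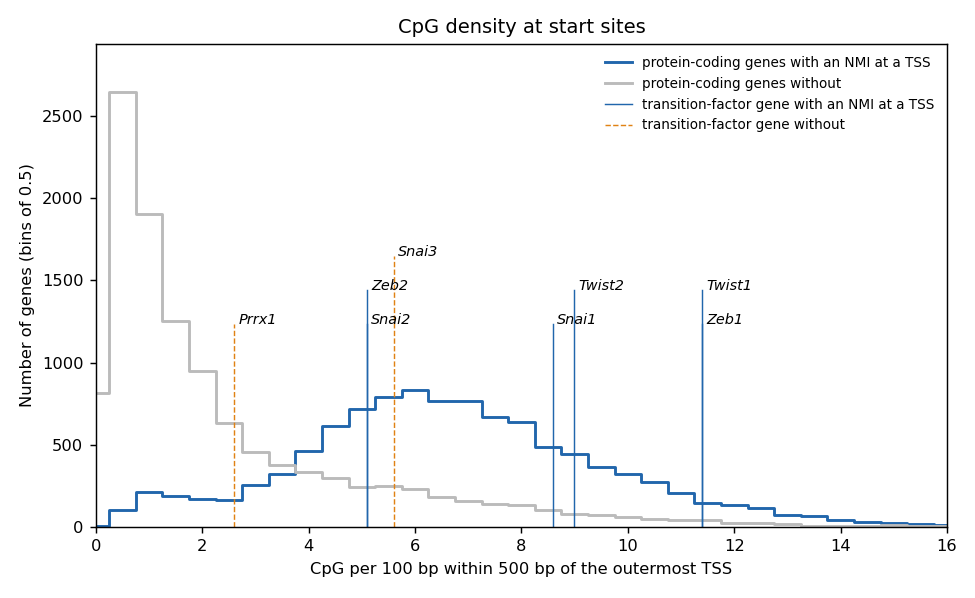
The number of protein-coding genes in bins of 0.5 (vertical axis) is plotted against CpG per 100 bp within 500 bp of the outermost TSS, for genes with (blue) and without (grey) an NMI at a TSS. Vertical lines mark the members with (blue) and without (orange, dashed) an NMI, and Snai3 at 5.59 stands to the right of Snai2 and Zeb2 at 5.09. The Zeb2 line gives the density at its outermost TSS, which lay outside its NMI.

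Read at matched density, the share of protein-coding genes with an NMI was 83.8% around Twist2, 83.3% around Snai1, 82.7% around Zeb1 and Twist1, 76.6% around Snai3, 72.9% around Snai2 and Zeb2, and 24.4% around Prrx1. Density was taken at the outermost TSS, whereas an NMI at any TSS counted. For Zeb2 the share thus rests on a TSS that lay 6001 bp from its NMI. The Zeb2 starts in the NMI had 2.30 to 9.59 CpG per 100 bp. Each share covers genes within 1 CpG per 100 bp of the member, and genes of like density share other features of sequence. For Snai3 the lack of an NMI at the TSS was the less common outcome among such genes, and for Prrx1 it was the more common one. The Prrx1 share does not take in the denser stretch from 760 to 1859 bp after its TSS, which held 5.82 CpG per 100 bp.

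CpG islands were also predicted from sequence alone, as windows of 500 bp in which GC made up 55% or more and the observed/expected ratio was 0.65 or more, joined where they overlapped and kept if the whole met both. By this rule 5 of 8 members had an island at a TSS, Snai1, Zeb1, Zeb2, Twist1 and Twist2, beside 45.0% of all protein-coding genes. All 5 had an NMI at a TSS, beside 80.4% of the protein-coding genes with such an island. Snai2 missed narrowly on GC content, and Snai3 missed by more on the ratio. The joined windows at Snai2 had a GC content of 54.3%, and those at Snai3 a ratio of 0.595, and under looser criteria (200 bp, 50% and 0.6) both genes gained an island, which made 7 members, beside 60.1% of all protein-coding genes. With joined windows not held to the criteria as a whole, an alternative chosen after seeing the data, the same 7 members had an island, beside 58.0%.

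The NMI and the predicted island matched to different degrees. The NMI covered 100% of the inner Zeb2 island, 89.0% of the Zeb1 island, 78.1% at Twist2, 65.2% at Twist1 and 62.1% at Snai1, where the median over islands at protein-coding TSSs that overlapped an NMI was 88.9% and the lower quartile 80.1%. At Snai1 the uncovered 639 bp, from 357 to 995 bp after the TSS, held 44 CpGs and 520 coding bases. At Twist1 the uncovered 692 bp lay upstream, from 826 to 135 bp before the TSS, with 47 CpGs. The uncovered CpG density was 6.89 per 100 bp at Snai1 and 6.79 at Twist1, close to the median of NMIs at protein-coding TSSs, but 5.56 over 468 bp at Twist2 and 1.98 over 303 bp at Zeb1, below their lower quartile of 5.67.

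Snail, Zeb and Twist proteins bind E-boxes, and the Snail and Zeb proteins favour CACCTG, which reads CAGGTG on the other strand. Within 500 bp of the outermost TSS, 5 of 8 members held this motif on either strand, beside 55.6% of all protein-coding genes. Snai3 had 5 matches, Snai1 and Zeb1 had 3 each, Snai2 and Zeb2 had 1 each, and Twist1, Twist2 and Prrx1 had none. In Snai1 a match lay 126 bp upstream of the TSS, inside the NMI and inside the window printed above, another 263 bp after the TSS inside the NMI, and the third 417 bp after the TSS outside it. The Zeb1 matches (221 and 63 bp upstream, 64 bp downstream) and the Snai2 match (51 bp downstream) lay in NMIs, and those of Snai3 and Zeb2 did not. A match is a run of letters and not a measured binding site.

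The genes that act with the members were described by the same count, beside the 47.5% of all protein-coding genes. In the lists of corepressors, dimer partners and their inhibitors, turnover genes and inducing signals every gene also had a predicted CpG island at a TSS. Among all protein-coding genes with such an island 80.4% had an NMI at a TSS. Corepressors that Snail and Zeb proteins recruit had an NMI at a TSS in 14 of 14 cases. The widest were at Ctbp2, a corepressor that binds Zeb proteins (3266 bp), Sin3a, the scaffold of a histone deacetylase complex (3100 bp), and Ajuba, a LIM protein that binds Snail (2625 bp). The partners with which Twist proteins pair and the Id proteins that block such pairing had one in 7 of 7, led by Id2 (6116 bp), Id1 (2797 bp) and Id3 (2656 bp).

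The genes for turnover of Snail protein had an NMI in 5 of 5 cases, led by Gsk3b, a kinase that marks Snail for degradation (3489 bp), and the F-box genes Fbxo11 (2612 bp) and Fbxl14 (2362 bp). The inducing signals had one in 11 of 11, led by the growth factor genes Tgfb1 (3083 bp), Tgfb2 (2378 bp) and Tgfb3 (2249 bp). Other transcription factors linked to the transition had one in 6 of 9, with Sox9 (4574 bp), Hmga2 (3783 bp) and Sox4 (3762 bp) wider than any member, and Foxc2, Gsc and Klf8 without. Relatives of the members had one in 4 of 11. Among these relatives the homeobox gene Shox2 (1744 bp), the tendon factor Scx (1474 bp) and the neural Snail relative Scrt1 (1220 bp) had the widest, and Ferd3l, Hand1 and Hand2 of the wider Twist family had none.

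Epithelial genes that the members repress, together with other genes of the epithelial state, had an NMI in 5 of 25 cases. The widest were at the desmosome gene Pkp2 (1517 bp), the polarity gene Llgl2 (1442 bp) and the mucin gene Muc1 (993 bp), and the E-cadherin gene Cdh1 and the tight junction genes Cldn1 and Cldn3 had none. Of the 18 epithelial genes with a predicted CpG island at a TSS, 4 had an NMI, whereas 7 of 7 such mesenchymal genes did, beside the 80.4% of all protein-coding genes with such an island. The same count was 4 of 8 among relatives of the members and 6 of 8 among the other transcription factors linked to the transition. Mesenchymal genes as a whole had an NMI in 10 of 22 cases, led by the N-cadherin gene Cdh2 (3054 bp), the vimentin gene Vim (2719 bp) and the growth factor receptor gene Pdgfra (2538 bp), with Acta2, Cdh11 and Col3a1 without. These lists were chosen with results of these data known, so the counts are a description only.

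**Figure D4:**
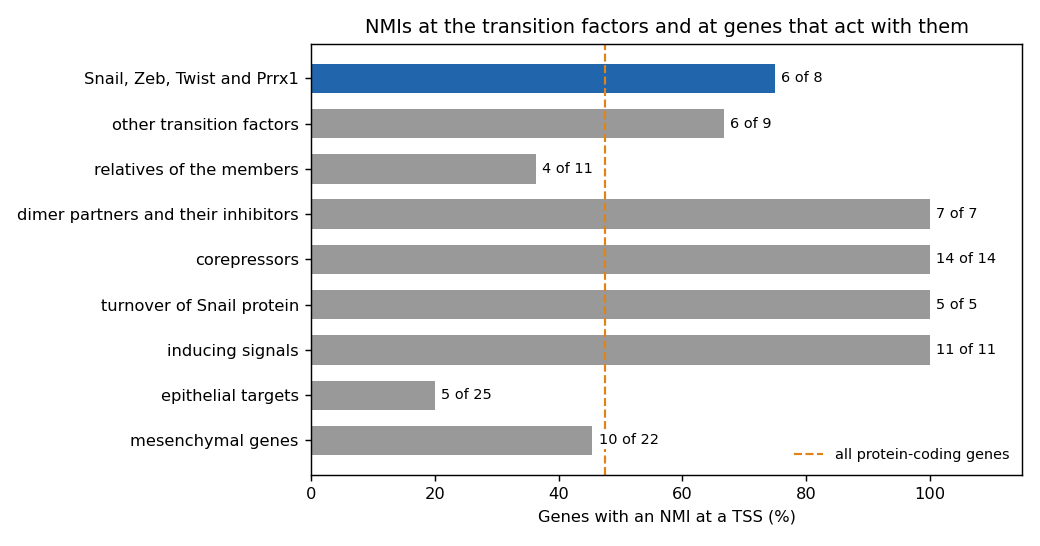
Bars give the percentage of genes with an NMI at a TSS for the members (top, blue) and for the lists of genes that act with them (grey), with the counts beside them and the 47.5% of all protein-coding genes as a dashed line. The members stand at 6 of 8, the lists of partners, corepressors, turnover genes and inducing signals reach the full count, and the epithelial list is the lowest at 5 of 25.

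The microRNA genes that target Zeb or Snail transcripts were kept apart, because their annotated 5′ end is that of the hairpin and not of the primary transcript. Of the 9 hairpins, 0 began in an NMI of the list used here. Mir141 and Mir200c lay nearest to one, at 4969 and 5374 bp, and Mir200a and Mir200b lay 54656 and 53891 bp away.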

How the data were processed

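NMIs were the authors' calls from 1 BioCAP library. Their methods name Bowtie2 for alignment to mm10, keeping unique hits, SAMtools to take out duplicates, and MACS for calling (MACS2 in the submitters' processing notes). Program versions, read depth and whether the input was the control: not given in the sources used here. The deposited table holds positions only (chromosome, start counted from 0, end), given here from 1.

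GENCODE M21 genes were placed on GRCm38 for chromosomes 1 to 19, X and Y, which left out 2 NMIs. Overlap was at least 1 bp. CpG values came from the reference sequence, and the expected CpG count is the product of C and G counts over the length. Flanks had the width of the NMI. Counts of members were set beside shares over protein-coding genes, and no test was made. Python 3.11.15, numpy 2.4.6 and pandas 2.3.3 were used, with functions tested on simulated data. The members, lists and alternatives were chosen with earlier results of these data known. Genes named were all 8 members, up to 3 genes of each list with the widest NMI and up to 3 without in alphabetical order, and genes sharing a member's NMI. The cell type markers were named as a list of their own, and Prrx2, Gorab and Mir200c after their values were seen.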

Additional observations from a re-analysis of the deposited data

How the results depend on the processing

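Of 18 alternatives over 6 results, 15 stayed within 1.5 times the reported count and 3 moved a median. The number of members with an NMI at a TSS ran from 4 to 7, with 4 (Snai1, Snai2, Zeb2 and Twist2) when the middle of the NMI had to lie within 500 bp of a TSS, where 46.3% of all protein-coding genes passed. Taking the NMI at the outermost TSS, which leaves out Zeb2, gave a median width of 1528 bp in place of 1754.5 bp. The median observed/expected ratio was 0.826 within 250 bp and 0.680 within 1000 bp, in place of 0.748. Leaving out NMIs no wider than 572.5 bp removed only that of Snai3. Testing joined windows without the check of the whole island, an alternative chosen after seeing the data, gave 7 members with an island in place of 5, beside 58.0% of all protein-coding genes in place of 45.0%. Depth is unknown, so a weakly captured island cannot be told apart from a methylated one.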
